A study of Mus musculus with 6 samples.

Results

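The genes described here encode the matrix metalloproteinases (MMPs), the ADAMTS proteases and the tissue inhibitors of metalloproteinases (TIMPs) that cultured fibroblasts can make, 32 genes of 49315 listed in the count files. They were matched by symbol to a fixed list of family members, drawn up with earlier results of these data known, and comprise 14 MMP, 14 ADAMTS and 4 TIMP genes. The libraries are poly(A) RNA of 6 fibroblast lines from C57BL/6 mouse embryos at passage 4, grown without treatment in DMEM with serum. The 3 SG lines (SG1, SG2, SG3) were p53-/-;MDMXSG/SG: both copies of Mdm4, the MDMX gene, carried W201S and W202G, which break the protein's contact with the kinase CK1-alpha. The 3 WT lines (WT3, WT9, WT11) were p53-/-;MDMXWT/WT. All 6 therefore lacked p53, the protein that MDMX restrains, and cells with p53 were not part of the comparison. Values of lines are always given in the order SG1, SG2, SG3 and WT3, WT9, WT11. Each line came from a different embryo, and embryo fibroblast cultures can hold several cell types, so in these bulk libraries fewer cells of a type and less RNA per cell cannot be told apart.

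MMPs are zinc-dependent endopeptidases made as inactive precursors. Soluble members cleave collagens, laminins, fibronectin and proteoglycans around the cell, and membrane-bound members do so at the cell surface. ADAMTS proteases are secreted relatives with thrombospondin repeats, known for cutting proteoglycans such as versican and aggrecan, for trimming procollagens and for acting on fibrillin fibres. TIMPs bind the active site and block it, so the activity in a tissue depends on how much enzyme, activator and inhibitor is present together. RNA counts measure none of these activities.

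The libraries held between 49317925 (WT3) and 65457242 (WT9) counts assigned to genes, and the Pearson correlation of log2 CPM across genes was between 0.9865 and 0.9938 for pairs of lines. Levels are given as CPM, counts per 1000000 after TMM scaling, and SG was compared with WT by edgeR's quasi-likelihood test with Benjamini-Hochberg adjustment over 16068 genes, with a threshold of 0.05. Of the genes tested, 306 (1.90%) passed, 0.809% higher and 1.10% lower in SG, and this count was 3 without SG2, 24 without WT3 and 29 without WT11. The 10 fibroblast markers summed to 14454 to 17346 CPM in SG and 15659 to 15865 CPM in WT lines, carried by collagen genes and Vim, while Lum (2.04 to 2.66 CPM) and Fap (3.21 to 6.83 CPM) were low. Of these markers 7 had log2 fold changes below 0, and 1 passed, Thy1, a surface glycoprotein, which was 1.64-fold lower in SG (adjusted p = 0.00802, and 0.0629 without SG2). DESeq2 called 3 of the 10 lower, beside 3.32% of all genes. The 10 macrophage markers summed to between 12.1 CPM (WT11) and 64.4 CPM (SG3), the 7 endothelial ones to between 39.4 and 72.6 CPM, and the 7 epithelial ones to between 49.7 and 86.1 CPM. Kdr carried the endothelial sum (38.1 to 70.5 CPM), while Pecam1, Cdh5, Tie1, Tek and Vwf reached at most 0.940 CPM in any line. Krt19 (35.2 to 70.5 CPM) and Krt18 (8.39 to 23.3 CPM) carried the epithelial sum, while Epcam and Cdh1 reached at most 0.392 CPM. Of 5 tested epithelial markers 0 passed and DESeq2 called 1 higher (beside 2.64% of all genes). An unadjusted p under 0.05 was found for 3 (beside 15.5% of all genes), which went in different directions. Krt14 lay higher in every SG line (log2 fold change 2.33, SE 0.63, adjusted p = 0.122). Krt18 lay above 0 (0.64, SE 0.27, adjusted p = 0.307) and Krt19 below 0 (-0.42, SE 0.17, adjusted p = 0.288), both with overlap between genotypes. Krt5, which was not tested, was at 2.94 CPM in SG1, 1.68 CPM in SG2 and 0 in the other 4 lines. Of 5 tested endothelial markers 0 passed, with 1 at an unadjusted p under 0.05 and 1 called higher by DESeq2, beside the same shares of all genes. The part of these cell types in the members' values was not tested. Xist reached 399 CPM in line SG1 and 343 CPM in line WT9, against 0.565 to 0.700 CPM elsewhere. The Y chromosome genes Ddx3y, Eif2s3y, Kdm5d and Uty were at most 0.163 CPM in SG1 and WT9. They were at least 21.1 CPM in the other 4 lines. By these transcripts SG1 and WT9 were female lines and the other 4 male.

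Among the 32 members, 1 rose and 1 fell in SG lines. Mmp2, the gelatinase of fibroblasts, was 1.75-fold higher, and Adamts20, a versican-cleaving protease, was 3.33-fold lower. These were 2 of the 29 members with enough reads to test, or 6.90%, beside 1.90% of all genes. The 29 had a median log2 fold change of -0.03, against 0.00 for all genes tested, with 13 values above and 16 below 0. SG and WT lines had no CPM values in common range for 15 of the 29 (51.7%), 7 with every SG line higher (24.1%, beside 10.0% of all genes) and 8 with every SG line lower (27.6%, beside 11.2%), where 21.2% of all genes had no overlap in either direction. An unadjusted p under 0.05 was found for 17 of the 29 (58.6%, beside 15.5% of all genes). DESeq2 called 6 members higher and 6 lower, where it called 2.64% of all genes higher and 3.32% lower. No test was made of whether these shares exceed those of other families.

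**Figure D1:**
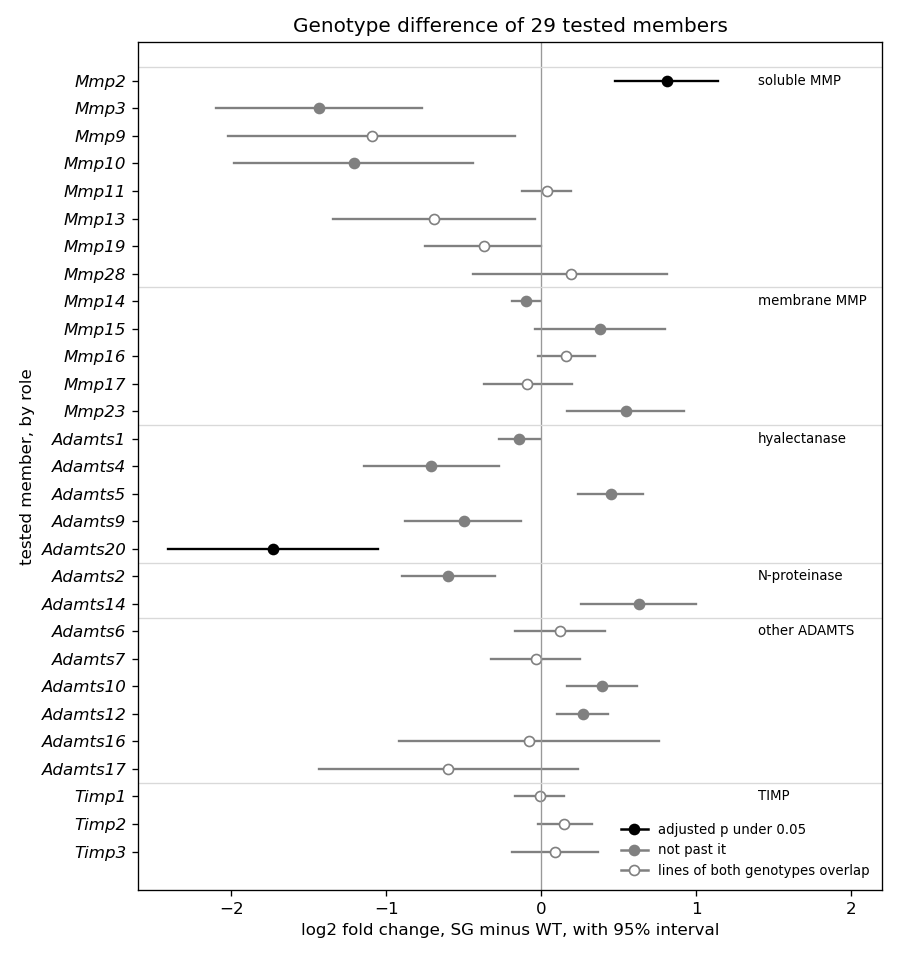
Log2 fold change (SG minus WT, x axis) of the 29 tested members with its 95% interval, grouped by role on the y axis; black marks passed an adjusted p of 0.05, grey marks did not, and open marks are members whose CPM overlap between genotypes. Mmp2 (0.81) and Adamts20 (-1.73) are the black marks, and the TIMP genes lie close to 0.

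Counts concentrated in a few members. On the scale of CPM per kb of exon, which allows genes to be compared with each other, the mean over the 6 lines was 280 for Timp1, 195 for Timp2, 110 for Mmp14, 59.3 for Mmp2 and 40.0 for Adamts1. These 5 genes made up 87.4% of the summed level of all 32. The line ranges of Timp1 (259 to 305), Timp2 (173 to 225), Mmp14 (104 to 118) and Mmp2 (35.3 to 84.9) did not touch, so their order was the same in every line. Timp3 (19.5 to 28.3) and Adamts5 (13.7 to 22.5) overlapped in level. Mmp11, Adamts12, Adamts10, Mmp23 and Adamts6 followed, with means between 5.74 and 8.83 and each overlapping the next in that order. At the other end Mmp24, Adamts15 and Timp4 reached at most 0.0162 CPM per kb in any line and were not tested.

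**Figure D2:**
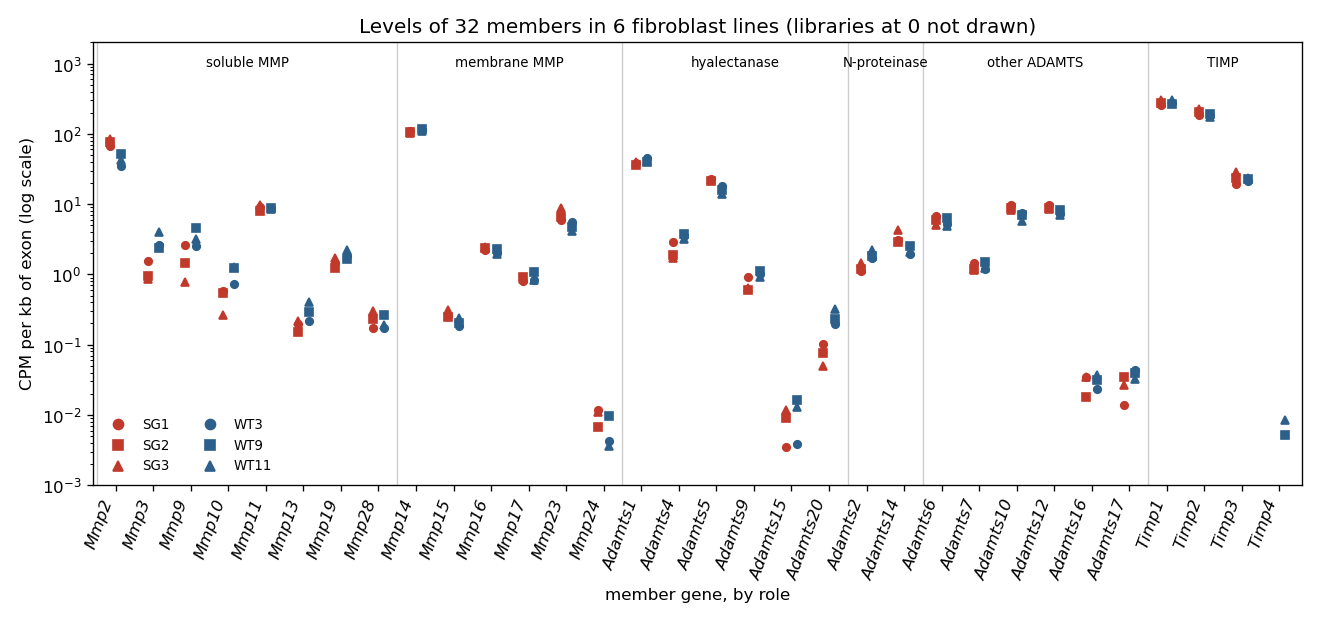
CPM per kb of exon (log axis) of the 32 members in each of the 6 lines, by role; red marks are SG lines and blue marks WT lines. Levels run from a mean of 280 for Timp1 down to libraries with no Timp4 read, which are not drawn.

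MMP2, MMP14 and TIMP2 act together at the cell surface, where a membrane-bound MMP14 molecule holding TIMP2 captures the MMP2 precursor and a neighbouring MMP14 cuts it to the active form. Mmp2 (ENSMUSG00000031740, GRCm38 chromosome 8, 92827291 to 92853420, plus strand) was at 223, 255 and 286 CPM in the SG lines and at 119, 175 and 142 CPM in the WT lines. The lowest SG line thus lay above the highest WT line, WT9. The mean was 255 ± 31.7 CPM (SD, n = 3) in SG and 145 ± 27.9 CPM (SD, n = 3) in WT, a log2 difference of 0.81 with a standard error (SE) of 0.14 and a 95% interval of 0.48 to 1.14 (edgeR adjusted p = 0.0362). The adjusted p was 0.143 without SG2, 0.0691 without SG3, 0.112 without WT3, 0.144 without WT11 and 0.0945 with a robust prior. The call was thus lost in these fits. The log2 fold change in them was 0.81, 0.72, 0.69, 0.80 and 0.81, in that order, and stayed between 0.69 and 1.05 over all 13 alternative fits. Calls over all genes in the same fits numbered 3, 222, 24, 29 and 235, against 306 with all lines. Whether the lost Mmp2 call came from its own values in those lines was not tested.

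Mmp14 (chromosome 14, 54431612 to 54441265), which encodes the activator, was at 464, 456 and 446 CPM in the SG lines and at 486, 507 and 470 CPM in the WT lines. Every SG line was below every WT line, but by little (log2 fold change -0.10, SE 0.04, adjusted p = 0.262). Timp2 (chromosome 11, 118301069 to 118355740) was at 718, 802 and 876 CPM in the SG lines and at 732, 749 and 674 CPM in the WT lines. Here SG1 fell among the WT lines, and the log2 fold change of 0.15 (95% interval -0.02 to 0.33) missed the threshold (adjusted p = 0.390).

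Ratios within a line do not depend on how libraries were scaled. The ratio of Mmp2 to Timp2, on CPM per kb, was 0.359, 0.368 and 0.378 in the SG lines and 0.188, 0.269 and 0.243 in the WT lines. The SG lines lay close together and above all WT lines. The ratio of Mmp14 to Timp2 was 0.586, 0.514 and 0.461 in the SG lines and 0.601, 0.614 and 0.632 in the WT lines, so it lay lower in SG, with SG1 next to WT3. These ratios were formed after the values were seen and were not tested. With 3 lines against 3, an exact 2-sided permutation test could not go below p = 0.10.

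**Figure D3:**
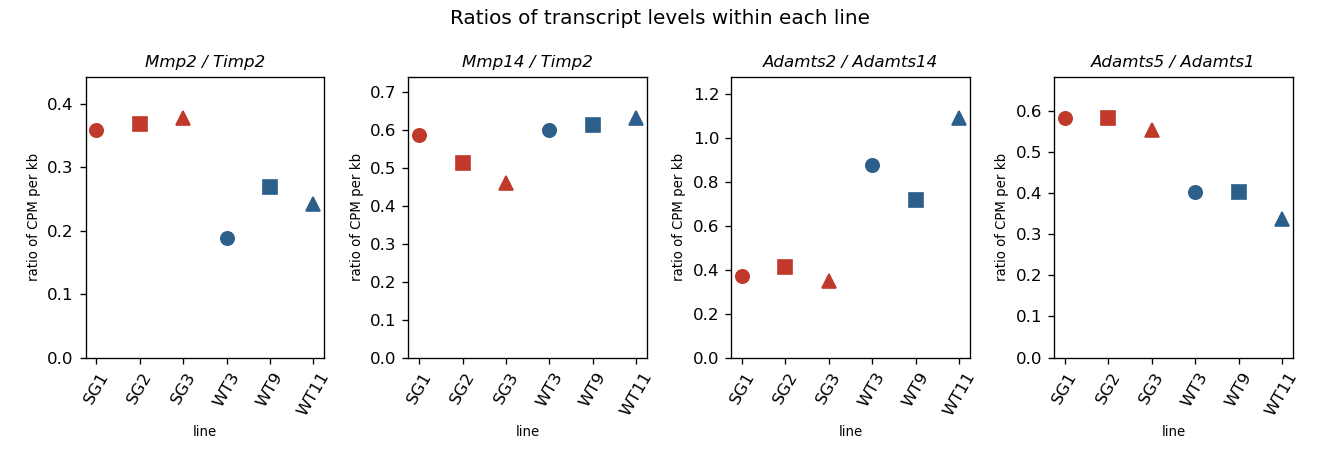
Ratio of CPM per kb within each line for 4 pairs of members (y axes start at 0), with SG lines in red and WT lines in blue. Of the 5 ratios computed these are the 4 whose SG and WT lines do not overlap, and Adamts2 over Adamts14 lies at 0.348 to 0.414 in SG and 0.715 to 1.09 in WT lines.

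Mmp3, Mmp10 and Mmp13 belong to a cluster of 10 MMP genes that spans 427 kb of chromosome 9. Mmp3 and Mmp10 encode stromelysins, which cleave proteoglycans and activate other MMPs, and Mmp13 encodes a collagenase that cuts fibrillar collagen. Genes of this cluster are textbook targets of AP-1, the FOS and JUN transcription factors, through a site close to the start of transcription. The 120 bases before the start of each are shown here because these 3 members of the cluster each hold the motif there. They are not adjacent: 162 kb separate Mmp13 from Mmp3, with Mmp12 and Mmp1b between them, and Mmp1a lies between Mmp3 and Mmp10. The sequences are RefSeq's, build GRCm38.p6, plus strand, 5′ to 3′, and capitals mark the AP-1 motif TGANTCA. They cover chr9:7272394-7272513 for Mmp13, chr9:7445702-7445821 for Mmp3 and chr9:7502222-7502341 for Mmp10.
Mmp13: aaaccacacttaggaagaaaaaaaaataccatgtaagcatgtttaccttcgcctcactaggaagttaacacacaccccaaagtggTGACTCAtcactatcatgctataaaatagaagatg
Mmp3: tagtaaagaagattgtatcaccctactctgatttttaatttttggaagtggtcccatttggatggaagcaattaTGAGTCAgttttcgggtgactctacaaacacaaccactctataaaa
Mmp10: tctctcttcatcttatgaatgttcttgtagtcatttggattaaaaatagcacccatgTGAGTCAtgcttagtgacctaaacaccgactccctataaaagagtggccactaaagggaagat

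The motif TGANTCA reads the same on both strands and began at position -35 from the RefSeq start in Mmp13, -46 in Mmp3 and -63 in Mmp10. Promoters of 300 bases (250 before and 50 after the start) were listed for 20 of the 32 members, and these 3 were the only members of the 20 with a match. Mmp2, Mmp9, Adamts4 and Adamts5 were among the members with no promoter listed, so they were not searched. The promoter listed for Adamts20 (chromosome 15, 94404301 to 94404600, minus strand) lies inside the gene as counted, whose 5′ end is at 94465418. These were 15% of the matched members, where 8.97% of all 27025 genes in the table had a promoter with the motif. Counted by promoter, it was in 7.81% of 32851. A match describes the sequence and does not show that a factor binds there.

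Mmp3 (ENSMUSG00000043613, chromosome 9, 7445822 to 7455975) was at 2.81, 1.68 and 1.56 CPM in the SG lines and at 4.74, 4.23 and 7.31 CPM in the WT lines. All SG lines lay below all WT lines, with WT11 the highest. The log2 fold change was -1.43 (SE 0.28, 95% interval -2.10 to -0.77) and missed the threshold (adjusted p = 0.0526). It passed in 5 of 13 alternative fits, with adjusted p between 4.80e-06 with DESeq2 and 0.215 without SG2.

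Mmp10 (ENSMUSG00000047562, chromosome 9, 7502352 to 7510240), which starts 46.4 kb beyond the end of Mmp3, was at 0.997, 0.940 and 0.462 CPM in the SG lines and at 1.24, 2.12 and 2.18 CPM in the WT lines. The genotypes again did not overlap, although SG1 and WT3 were close, and the log2 fold change was -1.21 (SE 0.33, adjusted p = 0.123). Mmp13 was low in every line, from 0.407 CPM in SG2 to 1.07 CPM in WT11, and SG3 (0.582) just exceeded WT3 (0.580). Its log2 fold change was -0.69 (SE 0.28, adjusted p = 0.296). Cartilage and bone cells also make Mmp13. The summed level of 10 of their markers was 91.6 to 199 CPM in SG lines and 70.5 to 93.4 CPM in WT lines. Col2a1, Runx2, Sox9 and Acan carried this sum, with Col2a1 at 126 CPM in SG3. Col9a1, Sp7, Bglap, Ibsp and Alpl reached at most 0.377 CPM in any line, and Matn1 was at 0 in all lines. Of 4 tested, 0 passed and DESeq2 called 1 higher (beside 2.64% of all genes). An unadjusted p under 0.05 was found for 3 (beside 15.5%). Acan and Col2a1 lay above 0 (2.27-fold and 4.02-fold) and Runx2 below 0 (1.14-fold lower). The part of cartilage and bone cells in the Mmp13 values was not tested. The other genes of the cluster gave few reads. Mmp12, the macrophage elastase, had a log2 fold change of 0.34 (SE 0.37), and Mmp1a, Mmp1b, Mmp7, Mmp8, Mmp20 and Mmp27 were below the count filter, with Mmp7 and Mmp20 at 0 reads in all 6 lines.

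Mmp9 (chromosome 2, 164940780 to 164955850) encodes the gelatinase best known from leukocytes and osteoclasts, and its SG lines were far apart. It was at 9.26, 5.11 and 2.76 CPM in the SG lines and at 9.10, 16.1 and 11.1 CPM in the WT lines. SG1 overlapped WT3, and the log2 fold change of -1.09 (SE 0.40, 95% interval -2.02 to -0.17) did not pass (adjusted p = 0.239). It passed without SG1, with SG1 and WT9 both left out and with no count filter. The 10 macrophage markers summed to 27.9 to 64.4 CPM in SG and 12.1 to 34.7 CPM in WT lines, with the highest sum in SG3, where Mmp9 was lowest. Of these markers 9 were tested, all with log2 fold changes above 0, and 0 passed with edgeR or DESeq2. An unadjusted p under 0.05 was found for 0 of them, beside 15.5% of all genes. The part of macrophages in the Mmp9 values was not tested.

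The remaining soluble MMPs were Mmp11, Mmp19 and Mmp28. Mmp11 encodes stromelysin 3, which furin activates inside the cell, and stayed within 20.8 and 24.7 CPM over all 6 lines. Its log2 fold change of 0.04 had a 95% interval of -0.12 to 0.19, the narrowest of the 8 soluble MMPs. Mmp19 was at 4.14 to 5.85 CPM in SG and 5.63 to 7.58 CPM in WT lines (log2 fold change -0.37, SE 0.16, adjusted p = 0.322), but 23.1% of its exon bases are shared with Tmem198b on the opposite strand, so reads of the pair may not be told apart. Mmp28 was at 0.660 to 1.16 CPM with no order by genotype.

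**Figure D4:**
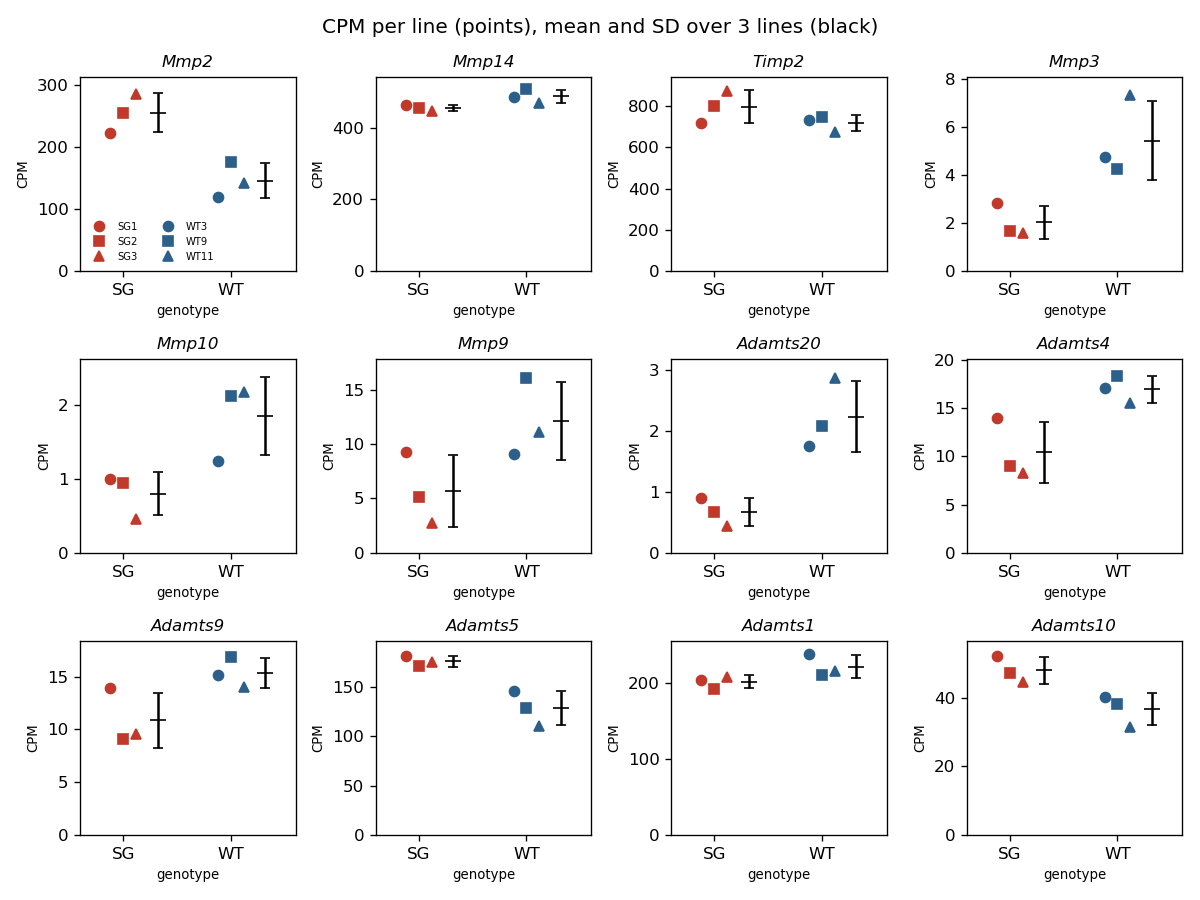
CPM of 12 members in each line (points, y axes from 0), with the mean and SD of the 3 lines per genotype in black. SG lines lie above all WT lines for Mmp2, Adamts5 and Adamts10 and below them for Mmp14, Mmp3, Mmp10, Adamts20, Adamts4, Adamts9 and Adamts1, while Timp2 and Mmp9 overlap.

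Beyond Mmp14, the membrane-bound MMPs were 5 genes at lower levels. Of the 5 tested members of the group 0 passed, where 2 had an unadjusted p under 0.05 (beside 15.5% of all genes). DESeq2 called 1 of the 5 tested, Mmp23, higher, beside 2.64% of all genes. Mmp23 encodes an enzyme held in the membrane by its N-terminal end, and was at 13.8, 15.3 and 20.5 CPM in the SG lines and at 13.1, 11.1 and 9.78 CPM in the WT lines. SG lines were above WT lines, with SG1 and WT3 close together (log2 fold change 0.55, SE 0.16, adjusted p = 0.148). Mmp15 was at 1.35 to 1.68 CPM in SG and 1.00 to 1.30 CPM in WT lines (log2 fold change 0.38, adjusted p = 0.375). Mmp16 and the lipid-anchored Mmp17 overlapped between genotypes, with log2 fold changes of 0.16 and -0.09. Mmp24 had 1 to 3 reads in each line, and 13.6% of its exon bases lie opposite exons of BC029722.

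ADAMTS1, 4, 5, 9, 15 and 20 are the branch known for cutting versican, aggrecan and related proteoglycans of the hyaluronan-rich matrix. All 5 tested members of this branch had an unadjusted p under 0.05 (beside 15.5% of all genes), in opposite directions. All 5 also lacked overlap of SG with WT lines (beside 21.2% of all genes). Whether the branch differs from other gene groups in this was not tested. Adamts5 lay above 0, and Adamts1, Adamts4, Adamts9 and Adamts20 lay below it. Adamts20 alone passed over all genes.

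Adamts20 (ENSMUSG00000022449, chromosome 15, 94270163 to 94465418, minus strand), whose loss gives mice a white belt through loss of pigment cell precursors, was at 0.906, 0.674 and 0.445 CPM in the SG lines. In the WT lines it was at 1.76, 2.08 and 2.88 CPM. Every SG line lay below every WT line. The values rest on few reads, 26 to 50 in an SG library and 88 to 173 in a WT library. The mean was 0.675 ± 0.230 CPM (SD, n = 3) in SG and 2.24 ± 0.578 CPM (SD, n = 3) in WT, a log2 difference of -1.73 with a standard error of 0.29 and a 95% interval of -2.41 to -1.05 (edgeR adjusted p = 0.0335). The adjusted p was 0.153 without SG2, 0.0547 without SG3, 0.0974 without WT3 and 0.117 without WT11.

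Adamts9, the gene closest to Adamts20 in domain structure, was at 13.9, 9.09 and 9.60 CPM in the SG lines and at 15.2, 16.9 and 14.0 CPM in the WT lines. SG1 stood just below WT11, and the log2 fold change was -0.50 (SE 0.16, adjusted p = 0.176). Adamts4 (chromosome 1, 171250421 to 171260637), an aggrecanase induced by inflammation, was at 14.0, 8.96 and 8.25 CPM in the SG lines and at 17.1, 18.3 and 15.5 CPM in the WT lines. Its log2 fold change was -0.71 (SE 0.19, adjusted p = 0.115), and SG1 was again the SG line nearest to WT. Both genes passed without SG1, with SG1 and WT9 left out, with Xist as a covariate, with DESeq2 and with no count filter. An opposite-strand gene, A730049H05Rik, with at most 19 reads per library, shares 9.18% of the exon bases of Adamts9.

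Adamts5 and Adamts1 lie 55.1 kb apart on chromosome 16, both on the minus strand, and both encode proteases abundant in fibroblasts. Adamts5 (85858170 to 85901125) was at 182, 171 and 176 CPM in the SG lines and at 146, 129 and 111 CPM in the WT lines. The SG lines lay close together and above all WT lines, with a log2 fold change of 0.45 (SE 0.09, 95% interval 0.24 to 0.66) that missed the threshold (adjusted p = 0.0530). It passed with DESeq2 and with no count filter (adjusted p = 1.94e-05 and 0.000864). Adamts1 (85793827 to 85803113) was at 205, 193 and 209 CPM in the SG lines and at 239, 211 and 216 CPM in the WT lines, lower in each SG line by a small margin (log2 fold change -0.14, SE 0.06, adjusted p = 0.294). The ratio of Adamts5 to Adamts1 on CPM per kb was 0.581, 0.582 and 0.552 in SG lines and 0.401, 0.401 and 0.337 in WT lines. Adamts15 had 2 to 11 reads per line and was not tested.

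ADAMTS2 and ADAMTS14 remove the N-terminal propeptide of fibrillar procollagens, a step needed for collagen fibres to form. Their transcripts lay on opposite sides. Adamts2 (ENSMUSG00000036545, chromosome 11, 50602084 to 50807573) was at 10.6, 11.3 and 13.7 CPM in the SG lines and at 16.0, 17.0 and 20.9 CPM in the WT lines, a log2 difference of -0.60 (SE 0.13, 95% interval -0.90 to -0.30, adjusted p = 0.0645). Adamts14 (ENSMUSG00000059901, chromosome 10, 61197112 to 61273438) was at 15.8, 15.2 and 22.0 CPM in the SG lines and at 10.2, 13.3 and 10.7 CPM in the WT lines, a log2 difference of 0.63 (SE 0.16, 95% interval 0.26 to 1.00, adjusted p = 0.100). Neither passed, and in both the genotypes did not overlap. On CPM per kb the ratio of Adamts2 to Adamts14 was 0.372, 0.414 and 0.348 in SG lines and 0.876, 0.715 and 1.09 in WT lines. The summed CPM of both genes overlapped, at 26.4 to 35.7 in SG and 26.2 to 31.6 in WT lines. DESeq2 and the fit with no count filter called both genes, Adamts2 lower and Adamts14 higher.

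Of the other 6 ADAMTS genes, all were tested and 0 passed, where 2 had an unadjusted p under 0.05 (beside 15.5% of all genes). DESeq2 called the same 2, Adamts10 and Adamts12, higher, beside 2.64% of all genes. Adamts10, whose product binds fibrillin microfibrils, was at 52.3, 47.3 and 44.5 CPM in the SG lines and at 40.3, 38.3 and 31.5 CPM in the WT lines (log2 fold change 0.39, SE 0.10, adjusted p = 0.0949). Adamts12, which cleaves cartilage oligomeric matrix protein, was at 59.6, 55.7 and 53.3 CPM in SG and at 45.7, 51.4 and 43.0 CPM in WT lines (log2 fold change 0.27, SE 0.07, adjusted p = 0.116). The SG lines lay above the WT lines in both. Adamts7, the close relative of Adamts12, did not share this order, at 7.36 to 9.13 CPM in SG and 7.58 to 9.34 CPM in WT lines. Adamts6, the close relative of Adamts10, was at 24.6 to 33.1 CPM in SG and 23.8 to 30.6 CPM in WT lines (log2 fold change 0.12, 95% interval -0.17 to 0.41). Adamts16 and Adamts17 reached at most 0.250 and 0.340 CPM. They were over the count filter's level of 0.168 CPM in 4 and 5 of the 6 lines, and all the other tested members were over it in all 6.

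The inhibitors were the most abundant group, and 0 of 3 tested TIMP genes passed. An unadjusted p under 0.05 was found for 0 of them (beside 15.5% of all genes), and DESeq2 called 0 (beside 2.64% higher and 3.32% lower). Timp1 (X chromosome, 20870166 to 20874735), a broad inhibitor of soluble MMPs, was at 230, 246 and 268 CPM in the SG lines and at 241, 237 and 271 CPM in the WT lines. Its log2 fold change was -0.01 with a 95% interval of -0.17 to 0.15, and SG1 and WT9, the lines with Xist, were the lowest of their genotype. Timp3, which binds to the matrix and is the TIMP that blocks ADAMTS4 and ADAMTS5, was at 159, 193 and 231 CPM in the SG lines and at 173, 186 and 189 CPM in the WT lines. The SG lines thus lay on both sides of the WT lines (log2 fold change 0.09, 95% interval -0.19 to 0.37). The ratio of Adamts5 to Timp3 on CPM per kb overlapped between genotypes, at 1.15, 0.894 and 0.766 in the SG lines and 0.854, 0.700 and 0.591 in the WT lines. Timp4 had no read in the SG lines or WT3, 2 reads in WT9 and 3 in WT11. A count of 0 allows up to 3 counts per library, or 0.0470 to 0.0600 CPM in those 4 lines, so no difference was detectable at this depth. Opposite-strand synapsin genes share 21.3% of the exon bases of Timp3 (Syn3, with 15 to 32 reads per library) and 1.53% of those of Timp4 (Syn2, with 7 to 15 reads).

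Summed over each family on CPM per kb, protease transcripts stayed below inhibitor transcripts in all 6 lines. The MMP sum was 199, 204 and 215 in the SG lines and 174, 197 and 179 in the WT lines. The TIMP sum overlapped between genotypes, at 463 to 555 in SG and 480 to 501 in WT lines. The summed MMP and ADAMTS level was 0.553 to 0.639 of the TIMP sum in SG lines and 0.520 to 0.592 in WT lines. These sums follow their most abundant genes, Mmp14, Mmp2, Timp1 and Timp2, and were not tested.

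Several ADAMTS genes were high in the same pair of lines. In SG1 and WT9, the lines with Xist, 7 of the 29 tested members were the highest of their genotype in both (Mmp9, Mmp14, Adamts4, Adamts6, Adamts7, Adamts9 and Adamts12). That is 24.1% of tested members, beside 13.0% of all genes tested, and 1 member (Timp1) was the lowest in both, or 3.45%, beside 13.0%. Adamts6, for example, was at 33.1 and 30.6 CPM in these lines and at 23.8 to 28.8 CPM in the other 4. An edgeR fit of Xist detection with genotype kept as a term called 0 members, and 10 of 16068 genes (0.0622%). An unadjusted p under 0.05 in that fit was found for 6 of the 29 members (20.7%, beside 6.25% of all genes). For Adamts6 it gave a log2 difference of 0.32 (SE 0.07, adjusted p = 0.522), and for Mmp9 of 0.94 (SE 0.23, adjusted p = 0.585). This pattern was looked for after the values were seen.

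The calls for members depended on the fit. Mmp2 and Adamts20 were the calls of the fit with 6 lines, and 13 of the 29 members passed in at least 1 of the fits run. The share of all genes that passed in at least 1 fit was not computed, so this count has no background. With DESeq2, 6 were higher (Mmp2, Mmp23, Adamts5, Adamts10, Adamts12 and Adamts14, beside 2.64% of all genes). Another 6 were lower (Mmp3, Mmp10, Adamts2, Adamts4, Adamts9 and Adamts20, beside 3.32%). With SG1 and WT9 left out, 3 were higher (Mmp2, Adamts12 and Adamts14, beside 1.95% of all genes) and 5 lower (Mmp3, Mmp9, Adamts4, Adamts9 and Adamts20, beside 2.41%). Without SG2, WT3 or WT11, edgeR called 0 members, where it called 3, 24 and 29 of all genes. Without SG3 it called Adamts2 alone among the members, and 222 of all genes. An unadjusted p under 0.05 was found for 11 members without SG2 (37.9%, beside 11.3% of all genes), 14 without WT3 (48.3%, beside 12.1%) and 16 without WT11 (55.2%, beside 11.6%).

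**Figure D5:**
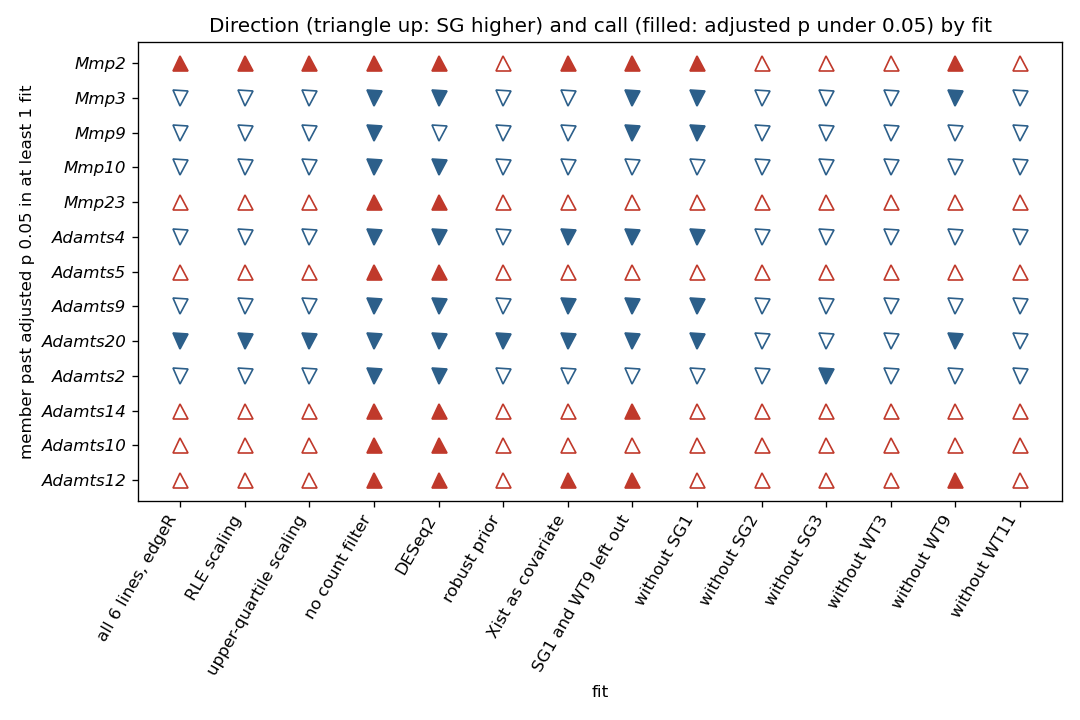
Direction and call of the 13 members that passed an adjusted p of 0.05 in at least 1 fit (rows), for each fit (columns); triangles up mean SG higher, triangles down SG lower, and filled triangles passed. The columns without SG2, WT3 or WT11 hold no filled triangle, and those of DESeq2 and of no count filter hold the most.

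Genes that act around these proteases were read from lists that hold no member. For all these lists the shares over all genes past edgeR's threshold were 0.809% higher and 1.10% lower. They were 15.5% at an unadjusted p under 0.05, and 2.64% higher and 3.32% lower with DESeq2. Of 18 tested genes for activation, anchoring and clearance, 0 passed over all genes, where 10 had an unadjusted p under 0.05 and DESeq2 called 3 higher and 2 lower. Pcsk5, a proprotein convertase, was at 1.35 to 2.84 CPM in SG and 4.02 to 4.90 CPM in WT lines (log2 fold change -1.10, SE 0.25, adjusted p = 0.0750). Plau, the urokinase that starts plasmin formation, was at 100 to 109 CPM in SG and 57.5 to 89.2 CPM in WT lines (log2 fold change 0.52, SE 0.14, adjusted p = 0.117). Furin, which activates Mmp14 and the ADAMTS precursors, lay at -0.32 on the log2 scale (SE 0.09, adjusted p = 0.122), and Reck, a membrane-anchored MMP inhibitor, at 0.18 (SE 0.14, adjusted p = 0.597).

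Among 10 membrane-anchored ADAM proteases 0 passed, where 4 had an unadjusted p under 0.05 and DESeq2 called 1 higher. Adam19 came nearest, at 238 to 262 CPM in SG and 155 to 205 CPM in WT lines (log2 fold change 0.51, SE 0.10, adjusted p = 0.0536). The 9 tested ADAMTS and ADAMTS-like genes outside the members held 0 calls. DESeq2 called 1 higher and 1 lower, and an unadjusted p under 0.05 was found for Adamts18 (log2 fold change 0.82, SE 0.24, adjusted p = 0.145) and Adamtsl3 (-0.55, SE 0.16, adjusted p = 0.149). Of 9 MMP genes outside the members, Mmp12 and Mmp25 had enough reads to test and neither passed, with edgeR or DESeq2, and 0 had an unadjusted p under 0.05.

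Of 24 tested matrix substrates, 3 rose (beside 0.809% of all genes) and 0 fell (beside 1.10%). In this list 8 had an unadjusted p under 0.05 and DESeq2 called 5 higher and 0 lower. Hspg2, the basement membrane proteoglycan perlecan, was at 928 to 1027 CPM in SG and 722 to 811 CPM in WT lines (log2 fold change 0.36, SE 0.06, adjusted p = 0.0289), and Fn1 (fibronectin, 1.32-fold) and Sparc, a collagen-binding protein (1.31-fold), were the others. The Hspg2 call was lost without SG2 (adjusted p = 0.0810), SG3 (0.0584), WT3 (0.113) or WT11 (0.0912). The Fn1 call was lost without SG1 (0.0569), SG2 (0.121), WT3 (0.129) or WT11 (0.0993). The Sparc call was lost without SG2 (0.0855), WT3 (0.129) or WT11 (0.113). The proteoglycans cut by the ADAMTS1 branch did not pass, with Vcan (versican) at a log2 fold change of -0.10 (SE 0.11) and Acan (aggrecan, also one of the cartilage markers) of 1.18 (SE 0.28, adjusted p = 0.0855). Of 20 tested transcription factors and cytokines known to act on metalloproteinase genes, Etv5, an ETS factor, rose 1.20-fold (adjusted p = 0.0437) and 0 fell. In that list 9 had an unadjusted p under 0.05 (beside 15.5% of all genes), and DESeq2 called 3 higher and 1 lower. With no overlap between genotypes, 4 were higher in SG (beside 10.0% of all genes) and 7 lower (beside 11.2%). The Etv5 call was lost without SG2 (0.177), SG3 (0.0831), WT3 (0.171) or WT11 (0.155) and with Xist as a covariate (0.0558). Of the AP-1 genes, Jun (log2 fold change -0.18, adjusted p = 0.262) and Junb (-0.08, adjusted p = 0.430) lay lower in every SG line. Jund (0.23, adjusted p = 0.0908) and Fosl2 (0.22, adjusted p = 0.164) lay higher, while Fos, Fosb and Fosl1 overlapped. Of the other ETS genes listed, Ets1 (-0.15, adjusted p = 0.423) and Ets2 (-0.44, adjusted p = 0.0760) lay lower in every SG line, while Etv1 and Etv4 overlapped.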

How the data were processed

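Poly(A)-selected RNA of 6 fibroblast lines was sequenced. The deposited files hold unnormalised whole-number counts per gene. Tools named, per the submitters' processing notes, are Trimmomatic 0.36, STAR 2.5.2b, featureCounts, Subread 1.5.2 and DESeq2, with build GRCm38. Annotation, strand and multimapping settings are not given in the sources used here. Symbols came from GENCODE M21, where 48970 of 49315 identifiers had one and 26 of the 32 members had the files' start and end. Groups and line numbers came from the sample titles.

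Counts were filtered with filterByExpr at its defaults (16068 genes kept), scaled by TMM and tested for SG against WT, 2-sided, with edgeR 4.0.16 in R 4.3.3 (glmQLFit, glmQLFTest, no covariate), with Benjamini-Hochberg adjustment over all genes tested and a threshold of 0.05. DESeq2 1.42.0 was an alternative. The SE was taken as the absolute log2 value over the root of F. The script was tested on simulated data. Each line is from 1 embryo, so p-values set the genotype difference against the spread between embryos' lines. That spread was estimated with information shared across genes, and no batch was labelled. The rule for named genes takes all members, and from each list of related genes (not of cell type markers) those past the threshold, or up to 2 of smallest p where none passed. Other genes named (Furin, Reck, Vcan, Acan, AP-1 genes, ETS genes other than Etv5, and single markers of cell type or sex) were chosen after their values were seen. Members, lists and alternatives were chosen with earlier results of these data known. Libraries held 49317925 to 65457242 counts, and limits for a count of 0 cover counting error only. Some overlaps of members with other genes are not reported here.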

Additional observations from a re-analysis of the deposited data

How the results depend on the processing

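Alternatives were run for all tested members and for the count of all genes. Members called higher and lower numbered 1 and 1 with all 6 lines. With RLE or upper-quartile scaling the counts were the same. They were 6 and 7 with no count filter, 6 and 6 with DESeq2, 0 and 1 with a robust prior, 2 and 3 with Xist as a covariate, and 3 and 5 with SG1 and WT9 left out. Leaving out each line in turn gave 0 to 2 higher and 0 to 5 lower. The count of all genes was 306 of 16068, with 304 under RLE and 302 under upper-quartile scaling. It was 959 of 28807 under no count filter, 952 of 15959 with DESeq2, 235 with a robust prior and 421 with Xist as a covariate. It was 703 of 16124 with SG1 and WT9 left out, and 3 to 579 with a line left out. Calls over all genes thus also moved with the fit. Of 377 member fits, 14 changed sign, in 7 members with log2 fold changes near 0, and 0 of these passed. Mmp17 was at 0.09 with SG1 and WT9 left out and ran from -0.15 to 0.05 with a line left out. Timp1 was at 0.00 with upper-quartile scaling, 0.01 with SG1 and WT9 left out and -0.07 to 0.06 with a line left out. With a line left out Mmp11 ran from -0.02 to 0.10, Mmp28 from -0.02 to 0.39, Adamts7 from -0.14 to 0.07, Adamts16 from -0.24 to 0.18 and Timp3 from -0.05 to 0.21. The causes were not tested. No paired analysis was possible because the genotypes share only line number 3. Depth limits Timp4, Mmp24 and Adamts15, which had too few reads to test.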
